A study of Homo sapiens with 20 samples.

Results

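The genes described here are the MHC class II genes of human myeloma cells together with CIITA, the gene of their transcriptional coactivator. They were chosen by name: HLA-DRA, HLA-DRB1, HLA-DPA1, HLA-DPB1, HLA-DQA1, HLA-DQB1, HLA-DMA, HLA-DMB, CD74 and CIITA. These 10 genes were all found among the 60483 genes listed in the deposited expression table. Of them, 9 passed a filter of at least 1 FPKM in at least 2 libraries and were tested among 15687 genes, while HLA-DMB never reached 1 FPKM and is described by its values. FPKM is a gene's fragments scaled to its length and to the fragments counted in the library.

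RNA was sequenced from 5 multiple myeloma models, each given I3MO or the solvent DMSO, with 2 libraries in each of the 10 groups. I3MO is indirubin-3'-monoxime, a small-molecule kinase inhibitor. ANBL6BR, a bortezomib resistant form of the ANBL6 line, and ANBL6 itself received 5 µM I3MO, and the ARP1, RPMI8226 and U266 lines, labelled wild type like ANBL6, received 10 µM, so model and dose cannot be told apart between these 2 sets of models. The time of treatment is not given in the sources used here, and nothing says that the 2 libraries of a group came from separate cultures, so p-values measure the spread between these libraries, which may be technical.

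MHC class II molecules are pairs of an α and a β chain (HLA-DR, HLA-DP and HLA-DQ) that present peptides from the endocytic pathway to CD4+ T cells. CD74, the invariant chain, occupies the groove of a new class II molecule, and HLA-DM, itself an αβ pair, removes the last fragment of CD74 so that a peptide can bind. CIITA does not bind DNA: it is recruited to class II promoters by RFX, CREB and NF-Y proteins sitting on the X and Y boxes, and without CIITA these genes are silent or weakly transcribed. In the B lineage, plasma cells normally shut CIITA off as they mature, under the repressor encoded by PRDM1, and myeloma is a cancer of plasma cells.

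The promoter windows of 3 class II genes show the shared arrangement that the results refer back to. Each runs 5′ to 3′ on the gene's strand, with a part of the X box (ACNGATG) and the Y box (the CCAAT box read as ATTGG) in capitals.
HLA-DRB1, chr6:32589875-32589938, minus strand: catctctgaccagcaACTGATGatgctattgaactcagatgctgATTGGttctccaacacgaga
HLA-DQB1, chr6:32666726-32666789, minus strand: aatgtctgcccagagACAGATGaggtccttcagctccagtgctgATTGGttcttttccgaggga
HLA-DMA, chr6:32953157-32953221, minus strand: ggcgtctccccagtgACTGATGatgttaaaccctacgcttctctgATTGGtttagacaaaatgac
HLA-DMB, chr6:32941091-32941127, minus strand, the X part alone: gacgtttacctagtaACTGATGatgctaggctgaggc
Sequences and starts are those of RefSeq on GRCh38.p14, in which 8 of the 10 genes had a window of 300 bases (250 before and 50 after the start), HLA-DPA1 with 2 windows; HLA-DRA and CIITA had none. The letters ACNGATG were chosen after these windows had been read, and both motifs were searched on both strands; they do not overlap each other. ACNGATG was present in 7.65% of the 35116 RefSeq windows and ATTGG in 34.6%, while both in this order on 1 strand with 10 to 30 bases between them occurred in 0.0883%, or 31 windows. The gap between the boxes was 22 bases in HLA-DRB1 and HLA-DQB1 and 23 in HLA-DMA. HLA-DPB1 and HLA-DQA1 held ATTGG without ACNGATG, HLA-DMB held ATTGG on the other strand, CD74 held each motif once but not as this pair, and neither was present in the windows of HLA-DPA1. A match is a description of letters, not a measured site.

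The libraries held 12.11 to 20.31 M (mega) fragments on protein-coding genes, as recovered from the steps of the FPKM values. Replicates correlated at r of 0.962 to 0.989 across the 15687 genes, lowest in U266 given I3MO and next lowest, at 0.9696, in ANBL6BR given DMSO. Of 10 plasma cell markers, 9 reached 1 FPKM in some library (summed level 187 to 625 FPKM), with XBP1 listed at 0 throughout. Their sum was 213 and 226 FPKM in U266 given I3MO and 479 and 481 FPKM with DMSO, 408 and 416 in RPMI8226 given I3MO and 551 and 552 with DMSO, and 471 and 474 in ARP1 given I3MO and 540 and 625 with DMSO. It overlapped in ANBL6 and ANBL6BR, whose DMSO libraries stood at 187 and 497 FPKM. Among markers of other cells that carry class II, 1 of 10 macrophage and dendritic cell genes reached 1 FPKM (FCER1G; summed level 0.270 to 9.02 FPKM), as did 6 of 9 B cell genes (1.61 to 21.3 FPKM) and 0 of 6 T cell genes. The B cell sum was lower with I3MO in 3 models. It was 1.61 and 1.82 FPKM in ARP1 given I3MO and 5.48 and 6.59 with DMSO. In U266 it was 5.03 and 5.36 given I3MO and 8.03 and 8.68 with DMSO, and in ANBL6 11.98 and 12.1 given I3MO and 15.6 and 15.7 with DMSO. In ANBL6BR the B cell sum was higher, at 19.4 and 21.3 FPKM given I3MO and 10.4 and 18.3 with DMSO. In RPMI8226 it overlapped, at 19.0 and 19.1 FPKM given I3MO and 18.7 and 19.6 with DMSO. In U266 the macrophage and dendritic cell list summed to 5.36 to 5.50 FPKM with I3MO and 8.21 to 9.02 FPKM with DMSO, with CD1C at 0 in all 4 libraries. The ANBL6 I3MO libraries listed more genes above 0 (32668 and 28419) than those given DMSO (22138 and 22710). The part these differences play in the results was not tested, and in bulk RNA fewer cells of a type and less RNA per cell cannot be told apart.

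With I3MO, CIITA and class II genes were called lower in U266, ARP1, RPMI8226 and ANBL6, in U266 for every tested member and in the other 3 models for some of them. By limma on log2(FPKM + 1), two-sided and Benjamini-Hochberg adjusted over the 15687 genes with a threshold of 0.05, U266 had 9 of 9 tested members lower, against 15.8% of all genes tested called lower in that comparison. In ARP1 7 of 9 were lower, against 13.9% of genes. In RPMI8226 5 of 9 were lower, against 8.62% of genes, and in ANBL6 5 of 9, against 3.87%. No member was called higher in these models, where 10.5% of genes were in U266, 23.1% in ARP1, 6.19% in RPMI8226 and 4.1% in ANBL6. CIITA, HLA-DRA and HLA-DPA1 were called lower in each of the 4. In ANBL6BR 0 of 9 were called in either direction, against 8.4% of genes called lower and 10.0% higher, and 0 had an unadjusted p under 0.05. Changes on the log2(FPKM + 1) scale understate the change of genes near or below 1 FPKM.

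**Figure D1:**
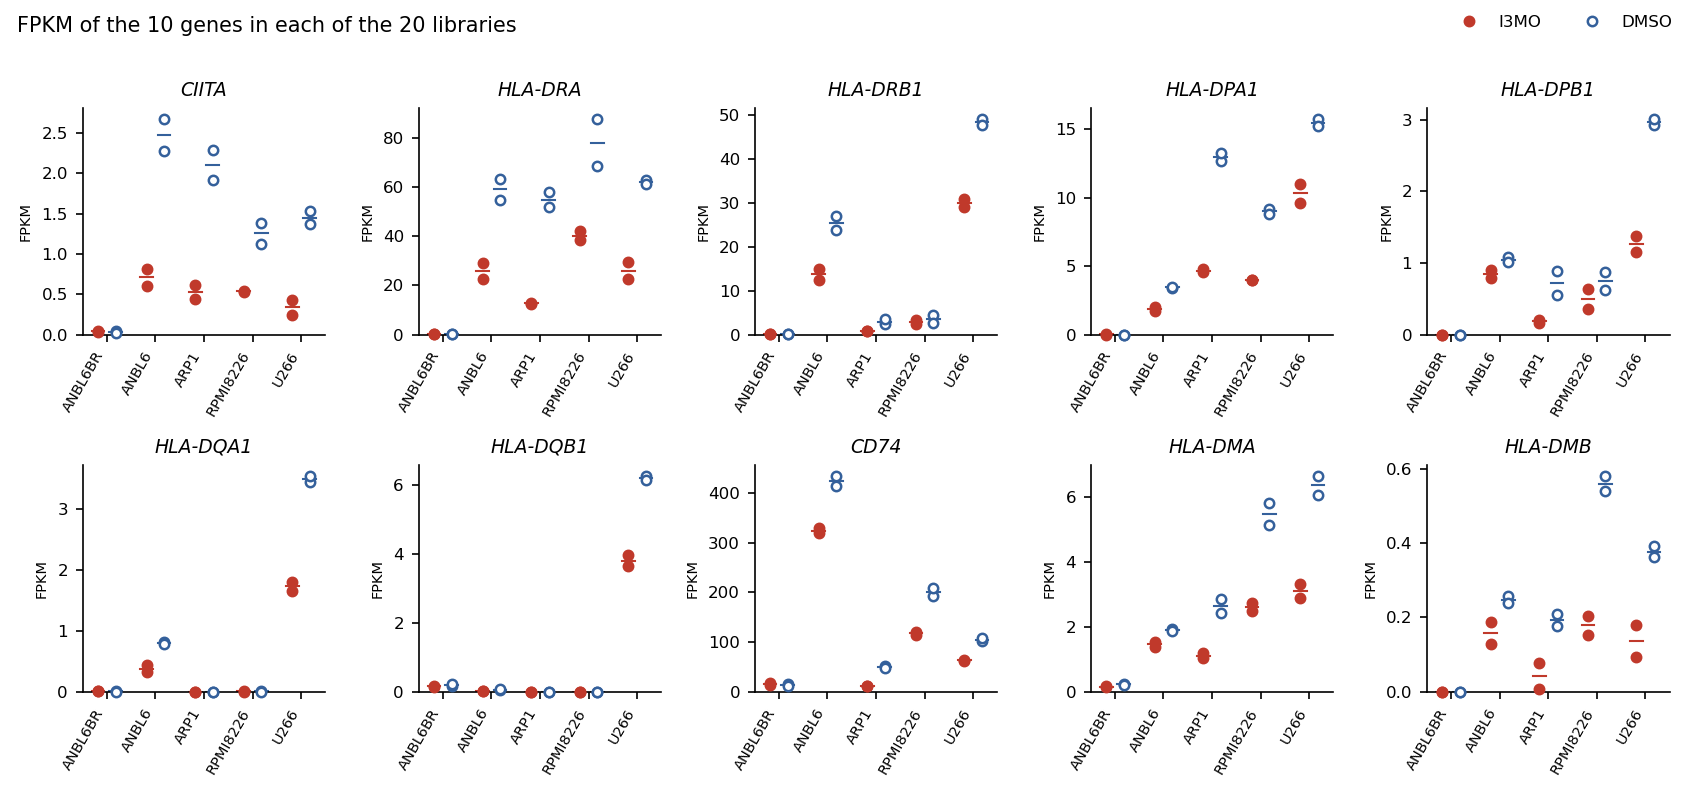
FPKM of each of the 10 genes in every library (one panel a gene, y axis FPKM, 5 models along the x axis, filled red points I3MO left of open blue points DMSO). The red points lie below the blue ones for all 10 genes in ANBL6 and U266, and in ANBL6BR all but CD74 stay at or below 0.234 FPKM.

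The median change over the tested members was -0.72 in U266, -1.02 in ARP1, -0.55 in RPMI8226 and -0.39 in ANBL6, on the log2(FPKM + 1) scale, where the medians of all genes tested lay between -0.02 and 0.03. Without regard to the test, both I3MO libraries lay below both DMSO libraries for 10 of 10 members in U266 (31.7% of all genes tested) and for 10 of 10 in ANBL6 (25.0%). The same held for 8 members in ARP1 (25.5%), 6 in RPMI8226 (33.4%) and 3 in ANBL6BR (24.2%), of which HLA-DRA and HLA-DRB1 had at most 3 fragments in every library there. HLA-DQA1 and HLA-DQB1 had at most 3 fragments in every ARP1 and RPMI8226 library. The filter itself leans on some groups: CIITA reached 1 FPKM in 8 libraries, all of them DMSO, and HLA-DQA1 and HLA-DQB1 reached it in the 4 U266 libraries only.

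CIITA (ENSG00000179583.16, chr16:10866222-10943021 on hg38, plus strand) encodes the coactivator that class II transcription depends on. Its level was 0.814 and 0.608 FPKM in ANBL6 given I3MO, against 2.27 and 2.67 FPKM in ANBL6 given DMSO. In ARP1 it was 0.616 and 0.439 FPKM with I3MO and 2.29 and 1.91 FPKM with DMSO. In U266 it was 0.433 and 0.244 FPKM with I3MO and 1.53 and 1.37 FPKM with DMSO. Treated and solvent libraries were thus far apart in each, and the mean with I3MO was 0.287 of the DMSO mean in ANBL6, 0.251 in ARP1 and 0.233 in U266. RPMI8226 had 0.546 and 0.525 FPKM with I3MO and 1.13 and 1.38 FPKM with DMSO, also without overlap and at a ratio of 0.426. On the log2(FPKM + 1) scale CIITA fell by 1.02 ± 0.10 in ANBL6 (SE; limma adjusted p = 0.000135), 1.02 ± 0.10 in ARP1 (2.14e-05), 0.88 ± 0.10 in U266 (5.65e-05) and 0.55 ± 0.10 in RPMI8226 (0.00338). In ANBL6BR it had 0.0317 and 0.0472 FPKM with I3MO and 0.0429 and 0.0180 FPKM with DMSO, from 18 and 29 against 24 and 10 fragments, and the groups overlapped (log2 difference 0.01, adjusted p = 1). Of the annotated exon bases of CIITA, 23.4% also belong to DEXI and 2 other genes, and whether strand was used in counting is not given in the sources used here.

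HLA-DRA (ENSG00000204287.12, chr6:32439842-32445046, plus strand) encodes the nearly invariant α chain of HLA-DR. It measured 12.5 and 12.8 FPKM in ARP1 given I3MO, against 57.8 and 51.8 FPKM in ARP1 given DMSO. In U266 it was 22.4 and 29.3 FPKM with I3MO and 63.0 and 61.2 FPKM with DMSO. These groups were widely separated, and the fall on the log2(FPKM + 1) scale was 2.03 ± 0.15 in ARP1 (limma adjusted p = 2.05e-06) and 1.24 ± 0.15 in U266 (5.82e-05). ANBL6 had 29.2 and 22.5 FPKM with I3MO and 63.4 and 54.7 FPKM with DMSO. RPMI8226 had 42.0 and 38.4 FPKM with I3MO and 68.5 and 87.6 FPKM with DMSO. Neither pair of groups overlapped, with falls of 1.17 ± 0.15 in ANBL6 (adjusted p = 0.000692) and 0.93 ± 0.15 in RPMI8226 (0.00109). As ratios of mean FPKM, HLA-DRA kept 0.231 of its DMSO level in ARP1, 0.417 in U266, 0.438 in ANBL6 and 0.515 in RPMI8226.

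HLA-DRB1 (ENSG00000196126.9, chr6:32578769-32589848, minus strand), whose paired X and Y letters are printed above, encodes the polymorphic β chain of HLA-DR. ARP1 had 0.716 and 0.817 FPKM with I3MO and 2.37 and 3.50 FPKM with DMSO, a fall of 1.14 ± 0.18 on the log2(FPKM + 1) scale (limma adjusted p = 0.000489). ANBL6 had 14.99 and 12.5 FPKM with I3MO and 27.1 and 23.9 FPKM with DMSO, and U266 had 30.9 and 29.1 FPKM with I3MO and 49.2 and 47.7 FPKM with DMSO. Both showed lower I3MO libraries with no overlap, at -0.85 ± 0.18 (adjusted p = 0.0155) and -0.67 ± 0.18 (0.0162). These 2 calls were lost with a pseudocount of 0.1 (adjusted p = 0.0625 in ANBL6 and 0.0767 in U266) and when 1 of several libraries was left out: without ANBL6 DMSO replicate 1 (0.111), DMSO replicate 2 (0.0658) or I3MO replicate 2 (0.145), and without U266 DMSO replicate 1 (0.0823), DMSO replicate 2 (0.0659) or I3MO replicate 2 (0.0725). In RPMI8226 the libraries overlapped, at 2.30 and 3.25 FPKM with I3MO and 4.56 and 2.70 FPKM with DMSO (-0.28 ± 0.18, adjusted p = 0.403). Reads of HLA-DRB1 can be shared with its close copies, and its alleles differ between lines, so its level is uncertain.

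HLA-DRB5, such a copy and the only gene tested among 8 other class II genes listed, was also lower in 2 models. U266 had 26.5 and 21.8 FPKM of HLA-DRB5 with I3MO and 40.1 and 39.6 FPKM with DMSO (-0.70, limma adjusted p = 0.000767). ARP1 had 0.425 and 0.816 FPKM with I3MO and 1.19 and 1.59 FPKM with DMSO (-0.57, adjusted p = 0.00264). HLA-DRB3 and HLA-DRB4 were not analysed here.

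HLA-DPA1 (ENSG00000231389.6, chr6:33064569-33080775, minus strand), the α chain of HLA-DP, was separated between treatments in all 4 models. ARP1 had 4.78 and 4.57 FPKM with I3MO and 12.7 and 13.3 FPKM with DMSO, and RPMI8226 had 3.98 and 3.97 FPKM with I3MO and 9.14 and 8.84 FPKM with DMSO. U266 had 9.64 and 10.97 FPKM with I3MO and 15.7 and 15.2 FPKM with DMSO, and ANBL6 had 2.00 and 1.70 FPKM with I3MO and 3.43 and 3.45 FPKM with DMSO. The I3MO libraries were the lower ones in each model. The fall on the log2(FPKM + 1) scale was 1.30 ± 0.07 in ARP1 (limma adjusted p = 2.43e-07), 1.01 ± 0.07 in RPMI8226 (2.57e-06), 0.64 ± 0.07 in ANBL6 (0.000255) and 0.55 ± 0.07 in U266 (0.000105).

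HLA-DPB1 (ENSG00000223865.9, chr6:33075926-33087201, plus strand), the partner β chain, was far lower in level than its α chain. It passed the test in U266, at 1.38 and 1.16 FPKM with I3MO and 2.92 and 3.01 FPKM with DMSO (-0.81 ± 0.11, limma adjusted p = 0.000157). It also did so in ARP1, at 0.167 and 0.201 FPKM with I3MO and 0.555 and 0.887 FPKM with DMSO (-0.53 ± 0.11, adjusted p = 0.00239). In ANBL6 it was 0.789 and 0.897 FPKM with I3MO and 1.08 and 1.01 FPKM with DMSO, a separation that did not pass (-0.15, adjusted p = 0.481), and in RPMI8226 the libraries overlapped (-0.22, adjusted p = 0.223).

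HLA-DQ was listed mainly in U266. HLA-DQA1 (ENSG00000196735.10, chr6:32628179-32647062, plus strand), its α chain, had 1.65 and 1.81 FPKM in U266 given I3MO and 3.45 and 3.54 FPKM in U266 given DMSO (-0.72 ± 0.06, limma adjusted p = 5.69e-06). In ANBL6 it had 0.432 and 0.327 FPKM with I3MO and 0.821 and 0.777 FPKM with DMSO (-0.38 ± 0.06, adjusted p = 0.0042). Both models thus had clearly separate groups. HLA-DQB1 (ENSG00000179344.15, chr6:32659467-32668383, minus strand), the β chain, had 3.96 and 3.65 FPKM in U266 given I3MO and 6.26 and 6.15 FPKM in U266 given DMSO (-0.58 ± 0.06, adjusted p = 2.35e-05). In ANBL6 HLA-DQB1 was at most 0.0647 FPKM in any library, and ARP1 and RPMI8226 listed it at 0. The 2 DQ genes are polymorphic and have close copies, so their levels are uncertain. HLA-DQA2, such a copy, had 0.085 and 0.259 FPKM in RPMI8226 given I3MO and 0.430 and 0.542 FPKM with DMSO. Of the exon bases of HLA-DQB1, 4.91% lie under HLA-DQB1-AS1 on the other strand.

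CD74 (ENSG00000019582.13, chr5:150401637-150412929, minus strand), the invariant chain, had the highest FPKM of the members when averaged over the DMSO groups, and fell most in ARP1. ARP1 had 10.99 and 11.4 FPKM with I3MO and 50.9 and 47.1 FPKM with DMSO, a fall of 2.04 ± 0.14 on the log2(FPKM + 1) scale (limma adjusted p = 1.61e-06). RPMI8226 had 115 and 121 FPKM with I3MO and 193 and 209 FPKM with DMSO, and U266 had 62.3 and 64.3 FPKM with I3MO and 101 and 109 FPKM with DMSO. Groups were separate in both, with falls of 0.76 ± 0.14 (adjusted p = 0.00355) and 0.72 ± 0.14 (0.00261). In ANBL6, CD74 had 319 and 330.3 FPKM with I3MO and 435 and 416 FPKM with DMSO, also separate, but the difference of -0.39 ± 0.14 did not pass the test (adjusted p = 0.126). ANBL6BR had 12.6 and 18.3 FPKM with I3MO and 15.04 and 11.4 FPKM with DMSO, which overlapped (0.20 ± 0.14, adjusted p = 0.438). Leaving out ANBL6BR I3MO replicate 1 gave a called rise of 0.45 there (adjusted p = 0.0473), and leaving out I3MO replicate 2 gave -0.05.

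HLA-DMA and HLA-DMB encode the α and β chains of HLA-DM, the peptide exchange catalyst. HLA-DMA (ENSG00000204257.13, chr6:32948613-32969094, minus strand) had 3.30 and 2.87 FPKM in U266 given I3MO and 6.07 and 6.64 FPKM in U266 given DMSO. RPMI8226 had 2.72 and 2.47 FPKM with I3MO and 5.12 and 5.80 FPKM with DMSO, and ARP1 had 1.18 and 1.04 FPKM with I3MO and 2.85 and 2.43 FPKM with DMSO. The I3MO libraries were lower without overlap in these 3 models, by 0.85 ± 0.09 in U266 (limma adjusted p = 1.58e-05), 0.84 ± 0.09 in RPMI8226 (4.52e-05) and 0.78 ± 0.09 in ARP1 (3.63e-05). ANBL6 had 1.38 and 1.53 FPKM with I3MO and 1.94 and 1.86 FPKM with DMSO, a difference that did not pass (-0.24 ± 0.09, adjusted p = 0.109). ANBL6BR had 0.127 and 0.176 FPKM of HLA-DMA with I3MO and 0.234 and 0.203 FPKM with DMSO, apart but far from passing (-0.08, adjusted p = 0.655). BRD2, on the other strand, and AL645941.2 share 9.04% of the exon bases of HLA-DMA.

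HLA-DMB (ENSG00000242574.7, chr6:32934629-32941070, minus strand) had 0.205 and 0.152 FPKM in RPMI8226 given I3MO and 0.580 and 0.539 FPKM in RPMI8226 given DMSO. U266 had 0.178 and 0.0940 FPKM with I3MO and 0.362 and 0.393 FPKM with DMSO, and ARP1 had 0.00603 and 0.0764 FPKM with I3MO and 0.210 and 0.176 FPKM with DMSO. The treated libraries were lower throughout, as in ANBL6 (0.186 and 0.127 FPKM with I3MO, 0.257 and 0.238 FPKM with DMSO). Fitted with no filter on low values, the differences were -0.41 in RPMI8226 (limma adjusted p = 0.00169), -0.28 in U266 (0.0086), -0.20 in ARP1 (0.0487) and -0.11 in ANBL6 (0.278). ANBL6BR listed HLA-DMB at 0 in all 4 libraries.

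**Figure D2:**
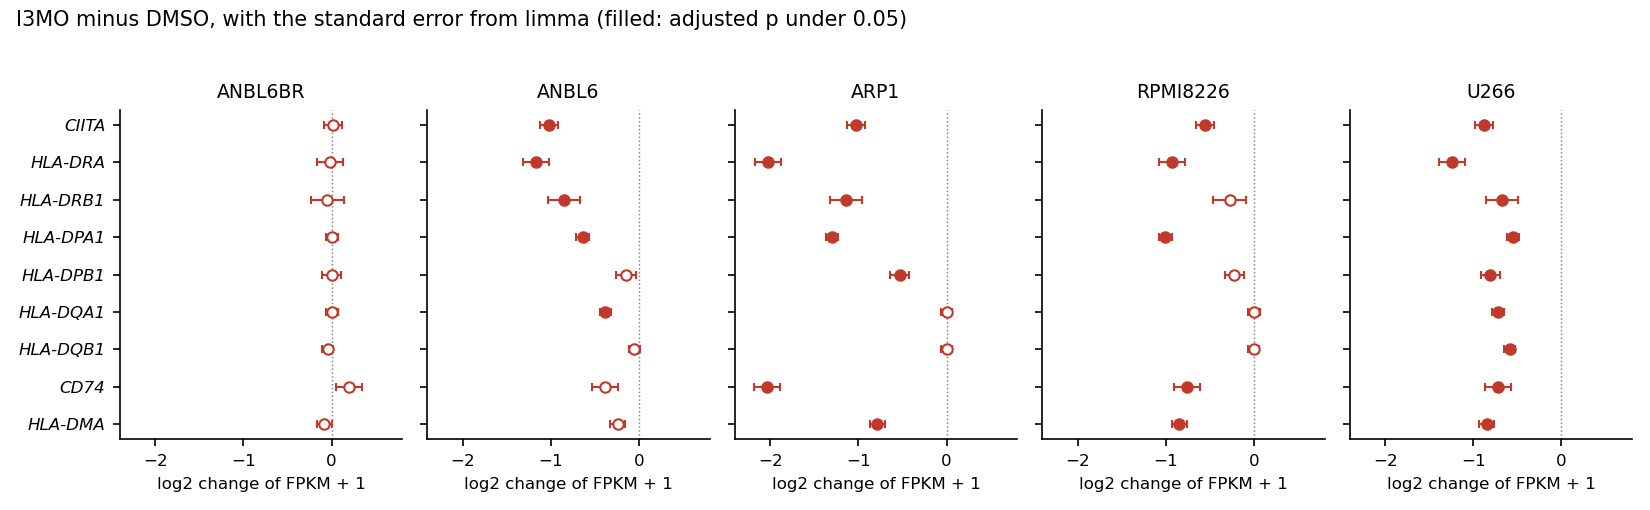
Change with I3MO on the log2(FPKM + 1) scale for the 9 tested genes in each model, I3MO minus DMSO, with bars for the standard error from limma and filled points for adjusted p under 0.05. HLA-DRA and CD74 in ARP1 lie lowest, at -2.03 and -2.04, and the ANBL6BR points lie near 0.

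On the log2(FPKM + 1) scale, the response differed between models. The joint limma test of equal responses in the 5 models, a moderated F, called 9 of 9 members, against 44.5% of all genes tested. In ANBL6BR every tested member but CD74 stayed at or below 0.234 FPKM and had little room to fall on this scale. For these members a fall in another model makes the responses unequal, so the call says nothing of how ANBL6BR responded. F was highest for HLA-DPA1 (49.0, adjusted p = 2.3e-05) and CD74 (32.2, 0.000105) and lowest for HLA-DRB1 (5.71, 0.024). The HLA-DQB1 call was lost with a pseudocount of 0.1 (F 2.60, adjusted p = 0.151). The HLA-DRB1 call was lost with the replicate number as a block (adjusted p = 0.0873) and when certain single libraries were left out. CD74 showed the spread of sizes: its I3MO mean was 0.228 of the DMSO mean in ARP1, 0.588 in RPMI8226, 0.603 in U266 and 0.764 in ANBL6. HLA-DPA1 kept 0.3602 in ARP1, 0.442 in RPMI8226, 0.538 in ANBL6 and 0.665 in U266. When the 5 models were instead taken as the replicates of 1 common response, 0 of 15687 genes were called (0.0%), and the smallest adjusted p was 0.0918; among protein-coding genes alone 65 of 10785 were called, none of them members. In that fit 7 of 9 members had an unadjusted p under 0.05, as did 16.9% of all genes; HLA-DRA averaged -1.08 ± 0.25 (limma adjusted p = 0.138) and CIITA -0.69 ± 0.16 (0.139).

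ANBL6BR had nearly no class II RNA. In DMSO, limma called 8 of 9 members lower in ANBL6BR than in ANBL6, against 24.8% of all genes tested called lower in that comparison. HLA-DRA was at 0.0565 and 0.0285 FPKM in ANBL6BR, against 63.4 and 54.7 FPKM in ANBL6. Counted over both libraries, that was 3 fragments of 28.89 M in ANBL6BR and 4171 of 28.96 M in ANBL6, a ratio of 0.000721 (exact 95% interval 0.000149 to 0.00211). The intervals here cover counting error only.

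CIITA had 34 fragments in ANBL6BR and 2764 in ANBL6, a ratio of 0.0123 (0.00852 to 0.0173), and on the log2(FPKM + 1) scale the difference was -1.75 ± 0.10 (limma adjusted p = 1.75e-08). HLA-DRB1 had 4 and 1579 fragments in ANBL6BR and ANBL6 (ratio 0.00254, interval 0.000691 to 0.00651). HLA-DPA1 had 0 fragments in ANBL6BR and 1036 in ANBL6, a ratio with an exact upper 95% limit of 0.00358. HLA-DPB1 had 0 and 217 fragments (upper limit 0.0172), and HLA-DMB had 0 and 79 (upper limit 0.0479). With ANBL6BR set by convention at a floor of 3 fragments over the group, these genes were 344-fold, 72.2-fold and 26.3-fold lower there. HLA-DQA1 had 2 fragments in ANBL6BR and 292 in ANBL6 (ratio 0.00687, interval 0.000828 to 0.025). These genes, α and β chains alike, were at or near the floor in ANBL6BR.

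CD74 and HLA-DMA were lower in ANBL6BR but present. CD74 had 15.04 and 11.4 FPKM in ANBL6BR and 435 and 416 FPKM in ANBL6, a ratio of fragments of 0.0311 (0.0302 to 0.0321). HLA-DMA had 54 fragments in ANBL6BR and 470 in ANBL6 (ratio 0.115, interval 0.0852 to 0.153). HLA-DQB1 went the other way at a very low level, with 74 fragments in ANBL6BR and 24 in ANBL6 (ratio 3.09, interval 1.93 to 5.12). Its difference of 0.16 passed narrowly (limma adjusted p = 0.0473, with 27.0% of genes called higher), and it was lost with no filter (0.0583), with median-ratio scaling (0.0781) and when single libraries were left out. Beside these results, the 5 epithelial markers listed summed to at most 0.0404 FPKM in ANBL6BR and to 29.6 and 30.7 FPKM in ANBL6, given DMSO, and the part of such differences between the lines was not tested.

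The change with I3MO was tested against that in ANBL6 at the same 5 µM dose. The response in ANBL6BR minus that in ANBL6 was called higher for 4 of 9 members, against 4.14% of all genes tested (4.33% were called lower, none of them members): CIITA (1.03 ± 0.15, limma adjusted p = 0.00186), HLA-DRA (1.15 ± 0.21, 0.00689), HLA-DPA1 (0.65 ± 0.10, 0.00287) and HLA-DQA1 (0.39 ± 0.09, 0.0226). In ANBL6BR, HLA-DRA, HLA-DPA1 and HLA-DQA1 had at most 3 fragments in any library, and CIITA averaged 0.0305 FPKM there with DMSO, so none of these 4 genes had room for a fall on the log2(FPKM + 1) scale. For them the difference restates the fall in ANBL6 and says nothing of how ANBL6BR responded. For CD74, the member with ample fragments in both lines, the difference of 0.59 ± 0.20 did not pass (adjusted p = 0.1001), but it did without ANBL6BR I3MO replicate 1 (0.84, adjusted p = 0.0192) or ANBL6BR DMSO replicate 1 (0.77, 0.0251). The HLA-DQA1 difference was lost when any of 5 libraries was left out (adjusted p 0.0626 to 0.085).

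In DMSO alone the members ranked the models differently. Over 10 pairs of models and 9 tested members, 73 of 90 differences were called by limma, against 59.5% of all gene tests over the same pairs (50.8% to 68.0% in a single pair). HLA-DQA1 and HLA-DQB1 passed the filter through the 4 U266 libraries only. Their called differences from U266 are among the 73 and follow in part from the filter, so the 73 is raised in part by the filter. HLA-DRA averaged 78.1 FPKM in RPMI8226, 62.1 in U266, 59.1 in ANBL6 and 54.8 in ARP1, and no neighbours in that order differed (limma adjusted p = 0.0834, 0.679 and 0.594), though RPMI8226 differed from ANBL6 (0.0408) and from ARP1 (0.0134). HLA-DRB1, its partner, spread much wider, from 48.4 FPKM in U266 and 25.5 in ANBL6 to 3.63 in RPMI8226 and 2.93 in ARP1, where only the last 2 did not differ (adjusted p = 0.36). CD74 ranked ANBL6 first at 425 FPKM, then RPMI8226 at 201, U266 at 105, ARP1 at 49.0 and ANBL6BR at 13.2, each step passing the test. CIITA was at 2.47 FPKM in ANBL6 and 2.10 in ARP1, which did not differ (adjusted p = 0.202), then 1.45 in U266 and 1.26 in RPMI8226, which did not differ either (0.329), and 0.0305 in ANBL6BR.

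HLA-DPA1 averaged 15.5 FPKM in U266, 13.0 in ARP1, 8.99 in RPMI8226 and 3.44 in ANBL6, all differing, while HLA-DPB1 was highest in U266 at 2.97 FPKM and did not differ between ANBL6 (1.04), RPMI8226 (0.746) and ARP1 (0.721) as neighbours. HLA-DMA was at 6.35 FPKM in U266 and 5.46 in RPMI8226 (adjusted p = 0.0769), above ARP1 (2.64) and ANBL6 (1.90). Between genes, mean FPKM over the DMSO groups ran from CD74 (159), HLA-DRA (50.8), HLA-DRB1 (16.1), HLA-DPA1 (8.18) and HLA-DMA (3.32) to HLA-DMB (0.275). CIITA was at 1.46, HLA-DQB1 at 1.29 and HLA-DPB1 at 1.10 FPKM, an order that changed when levels were recomputed on merged exon length, while 7 of 10 genes kept their rank.

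**Figure D3:**
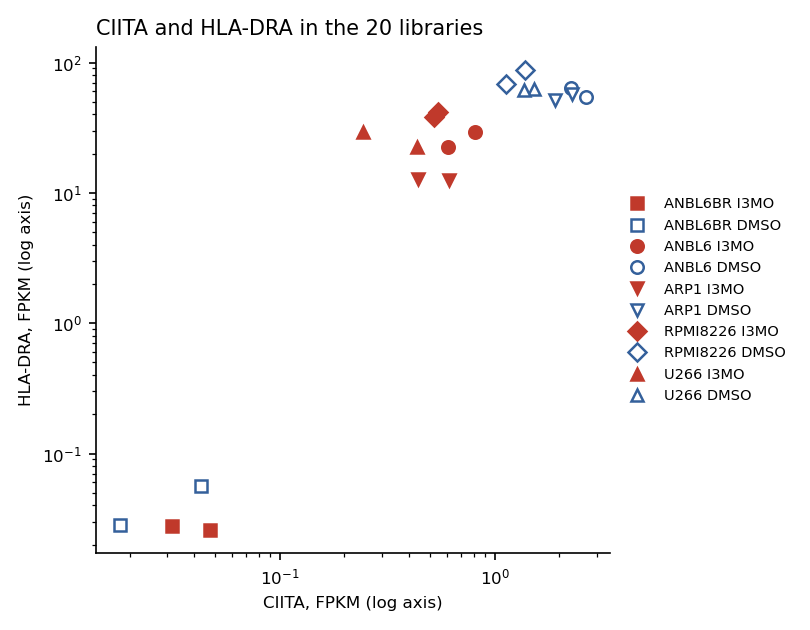
HLA-DRA against CIITA in the 20 libraries, both as FPKM on log axes, with a marker shape for each model, filled red points I3MO and open blue points DMSO. Libraries given I3MO lie to the lower left of those given DMSO in 4 models, and the 4 ANBL6BR libraries lie apart at the bottom left.

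Over the 10 group means of log2(FPKM + 1), CIITA correlated with HLA-DRA at r = 0.81, with HLA-DPA1 at 0.66, CD74 at 0.65, HLA-DMA at 0.64, HLA-DPB1 at 0.61 and HLA-DRB1 at 0.55. HLA-DQA1 (0.27) and HLA-DQB1 (0.01) showed little of the pattern. The 10 points share 5 cell lines and the drug, and ANBL6BR lies apart, so r is a description. Of 13467 other genes, 37 had a higher r with CIITA than HLA-DRA did; the 5 highest were HNRNPA3P6 (0.94), FLOT2 (0.93), EZR (0.91), SHROOM3 (0.91) and DHX8 (0.90). For HLA-DRA the 5 highest were RAPGEF1 (0.97), GAMT, UTP4, ENSG00000268543 and NECTIN1 (0.96 each).

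Of the proteins that hold CIITA at the X and Y boxes, RFX5, the DNA-binding subunit of RFX, was lower with I3MO in every model. RFX5 had 2.69 and 3.30 FPKM in U266 given I3MO and 7.51 and 7.17 FPKM in U266 given DMSO (-1.07 ± 0.09, limma adjusted p = 5.31e-06). It had 4.42 and 4.12 FPKM in RPMI8226 given I3MO and 7.58 and 7.07 FPKM with DMSO, and 8.24 and 7.86 FPKM in ANBL6 given I3MO and 12.7 and 12.6 FPKM with DMSO. The groups were separate in both, at -0.66 (adjusted p = 0.000509) and -0.59 (0.00302). In ARP1 RFX5 had 5.22 and 5.20 FPKM with I3MO and 8.37 and 6.66 FPKM with DMSO (-0.45, adjusted p = 0.00271). ANBL6BR, which had nearly no class II RNA, went in the same direction, at 4.05 and 4.13 FPKM with I3MO and 6.31 and 6.70 FPKM with DMSO (-0.56, adjusted p = 0.00153). RFX5 was also lower in ANBL6BR than in ANBL6 in DMSO, by 0.86 on this scale.

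The other proteins of the complex moved in both directions, and none of them was called in RPMI8226. Of the 7 listed and tested (RFX5, RFXAP, RFXANK, NFYA, NFYB, NFYC and CREB1), 1 rose and 1 fell in ANBL6, 1 and 2 in ANBL6BR, 3 and 2 in ARP1, 0 and 1 in RPMI8226 and 0 and 2 in U266. RFX5 is among those that fell in each model, and alone in ANBL6 and RPMI8226. Over all genes tested, 4.1% rose and 3.87% fell in ANBL6, 10.0% and 8.4% in ANBL6BR, and 23.1% and 13.9% in ARP1. The shares were 6.19% and 8.62% in RPMI8226 and 10.5% and 15.8% in U266, and several of the counts are near them. RFXAP, an RFX subunit, rose in ANBL6 (0.68, limma adjusted p = 0.0205) and ANBL6BR (0.66, 0.0118). In ARP1 the NF-Y subunits split, with NFYB (0.65) and NFYA (0.41) higher and NFYC (-0.46) lower, and CREB1 rose (0.50). NFYC fell in ANBL6BR (-0.29, adjusted p = 0.0492) and NFYA in U266 (-0.52, 0.00492), while RFXANK, the remaining RFX subunit, was called in no model.

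**Figure D4:**
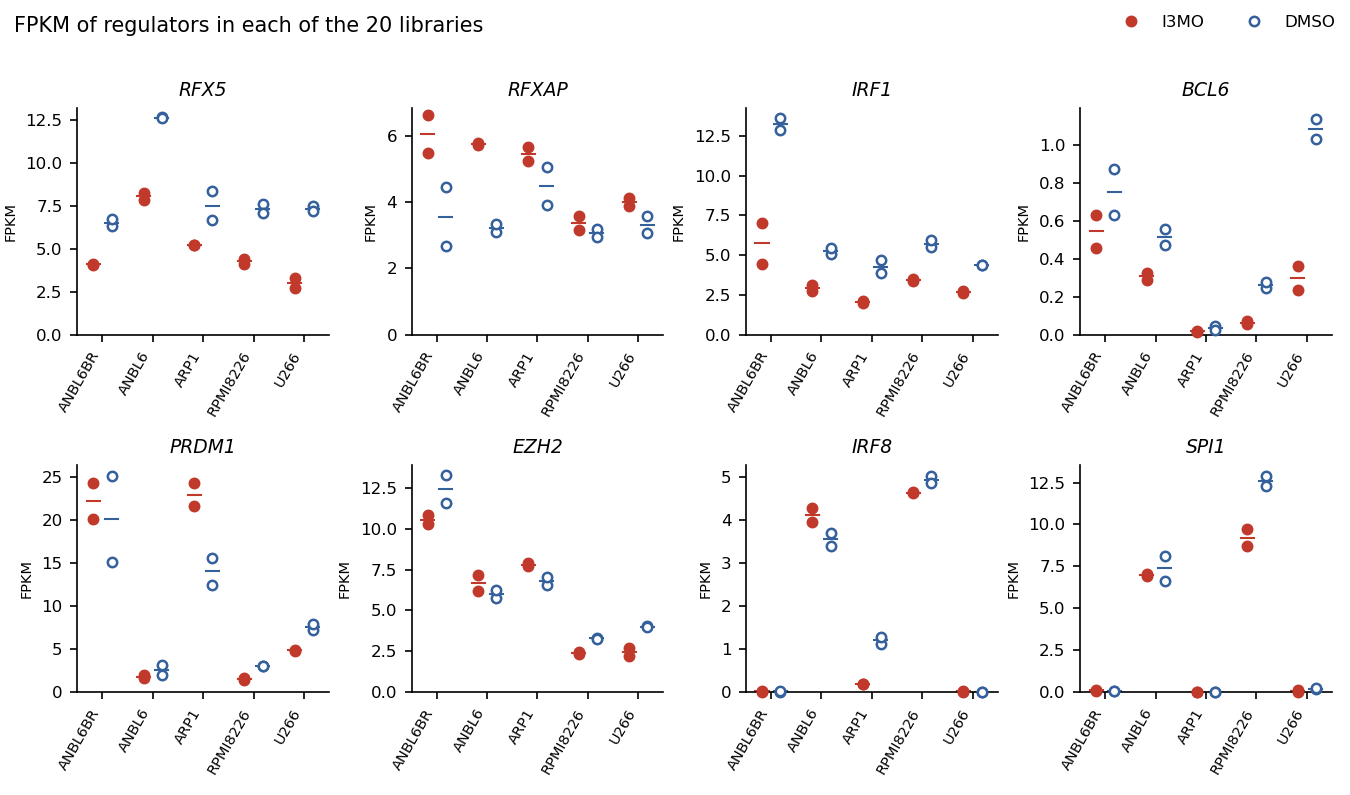
FPKM of RFX5, RFXAP and of 6 regulators of CIITA (IRF1, BCL6, PRDM1, EZH2, IRF8, SPI1) in every library, arranged by model with filled red points for I3MO left of open blue points for DMSO. RFX5 and IRF1 are lower with I3MO in all 5 models, and SPI1 is at or near 0 in ANBL6BR, ARP1 and U266 and IRF8 in ANBL6BR and U266, while PRDM1 is highest in ANBL6BR and ARP1.

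Among 11 tested regulators of CIITA, 6 fell in U266, 5 in ARP1, 4 in RPMI8226, 2 in ANBL6 and 1 in ANBL6BR, with 1 rising in ARP1 and none elsewhere. Of all genes tested, 15.8% were called lower in U266, 13.9% in ARP1, 8.62% in RPMI8226, 3.87% in ANBL6 and 8.4% in ANBL6BR, so the ANBL6BR count is near that share. IRF1, an interferon-induced activator of the CIITA promoter, had 4.44 and 7.04 FPKM in ANBL6BR given I3MO and 13.6 and 12.9 FPKM with DMSO (-1.11 ± 0.14, limma adjusted p = 0.00023). It had 2.09 and 1.96 FPKM in ARP1 given I3MO and 4.66 and 3.87 FPKM with DMSO (-0.79, adjusted p = 0.000835), and it also fell in ANBL6 (-0.68, 0.0121), RPMI8226 (-0.60, 0.0116) and U266 (-0.55, 0.0111). PRDM1, which encodes the repressor, was the gene that rose in ARP1, at 24.2 and 21.6 FPKM with I3MO and 15.6 and 12.4 FPKM with DMSO (0.68, adjusted p = 0.0196). In RPMI8226 PRDM1 fell, at 1.30 and 1.57 FPKM with I3MO and 2.97 and 3.01 FPKM with DMSO (-0.71, adjusted p = 0.0326), and in U266 it had 4.78 and 4.89 FPKM with I3MO and 7.14 and 7.84 FPKM with DMSO (-0.54, 0.0704). Other regulators called and leading by p were IRF8 (-0.90) and PAX5 (-0.41) in ARP1, SPI1 (-0.41) and EZH2 (-0.33) in RPMI8226, and BCL6 (-0.68) and EZH2 (-0.54) in U266.

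Between the lines in DMSO, 5 of these 11 regulators were called higher in ANBL6BR than in ANBL6 and 3 lower, against 27.0% and 24.8% of all genes tested, so the lower count is near the share of all genes. SPI1, which encodes the activator PU.1, had 0.0153 and 0.0154 FPKM in ANBL6BR and 8.12 and 6.64 FPKM in ANBL6 (-3.04 on the log2(FPKM + 1) scale). IRF8, a partner of PU.1, had 0 and 0.00619 FPKM in ANBL6BR and 3.401 and 3.71 FPKM in ANBL6 (-2.18). PRDM1, the repressor of CIITA, had 25.1 and 15.1 FPKM in ANBL6BR and 1.95 and 3.06 FPKM in ANBL6 (2.57). The groups were far apart for each of these 3 genes, which limma called. Among the lines with class II RNA, SPI1 in DMSO was listed at 0 in ARP1 and averaged 0.174 FPKM in U266. IRF8 was listed at 0 in U266, while in ARP1 it was lower than in ANBL6 but present. PRDM1 averaged 14.0 FPKM in ARP1 and 7.49 in U266, above both ANBL6 libraries and below both ANBL6BR libraries. The part of these 3 genes in the low class II RNA of ANBL6BR was not tested.

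Among the peptide processing genes, more were called higher than lower in each model. Of 8 tested, 1 rose in ANBL6, 2 in ANBL6BR, 3 in ARP1, 1 in RPMI8226 and 2 in U266, and 1 each fell in ARP1 and U266. Of all genes tested, 4.1% were called higher in ANBL6, 10.0% in ANBL6BR, 23.1% in ARP1, 6.19% in RPMI8226 and 10.5% in U266. The single genes called lower in ARP1 and U266 are near the 13.9% and 15.8% of all genes called lower there. LGMN, the lysosomal endopeptidase legumain that acts on CD74, rose in all 5 models. It had 19.98 and 17.2 FPKM in ANBL6BR given I3MO and 8.004 and 6.42 FPKM with DMSO (1.26 ± 0.13, limma adjusted p = 7.57e-05). It had 57.4 and 58.2 FPKM in RPMI8226 given I3MO and 28.8 and 31.2 FPKM with DMSO (0.92, adjusted p = 0.000545). In the other models the rise was 1.09 in U266 (adjusted p = 7.05e-05), 0.83 in ARP1 (0.000494) and 0.59 in ANBL6 (0.0185). CTSS, the protease that trims CD74 to its last fragment in B cells, fell in U266, with 1.15 and 1.54 FPKM with I3MO and 3.58 and 3.23 FPKM with DMSO (-0.91, adjusted p = 0.000665). CD83, which protects surface class II from turnover, fell in ARP1 (-0.80, adjusted p = 0.000911) and was listed at 0 in both ANBL6BR DMSO libraries, against 5.30 FPKM in each of the ANBL6 ones.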

How the data were processed

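RNA-seq libraries of 20 samples were used, 2 for each of 10 groups, grouped by their labels. FPKM values per gene were deposited by the authors as 1 joint table and 20 single tables with the same values; Trimmomatic (0.32 and 0.36), STAR, SAMtools and the build hg38 are named, without their order, per the submitters' processing notes, while the counting tool, its use of strand and its annotation are not given in the sources used here. limma 3.58.1 in R 4.3.3 was fitted to log2(FPKM + 1) with an intensity trend and a mean for each of the 10 groups, on the 15687 genes that reached 1 FPKM in 2 or more libraries, two-sided, Benjamini-Hochberg adjusted over all of them, called under 0.05; the fit over 5 models used group means with the model as a term. The fit was tested on simulated data. Whole fragments were recovered from the FPKM steps for 98.5% of tested genes (tolerance 0.02 of a fragment), which gave totals of 12.11 to 20.31 M. The authors' gene lengths were mostly the summed exons of all transcripts, a median of 1.74 times the merged exons, which lowers FPKM of genes with many transcripts. A list of gene names, with GENCODE 29 where that list had none, gave a symbol for 56753 of the 60483 gene IDs. Length cancels in a ratio within a gene but bears on the pseudocount and the filter.

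The members and gene lists were chosen with earlier results of these data known. All members are named; outside them, the partners of CIITA, genes called and among the 3 smallest p of their list in a comparison, and the 5 genes most like CIITA and like HLA-DRA; 1 listed regulator is not reported here. Alternatives were another pseudocount, no filter, median-ratio scaling, no trend, protein-coding genes only, merged exon length, the replicate number as a block, each model alone and each library left out.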

Additional observations from a re-analysis of the deposited data

Results flagged for a closer look

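Each entry here is a tested difference in the I3MO response between models; the ANBL6BR and ANBL6 doses were the same, while ARP1, RPMI8226 and U266 received a higher dose, so model and dose cannot be told apart in the joint test. The response in ANBL6BR minus that in ANBL6 differed by limma for CIITA (1.03), HLA-DRA (1.15), HLA-DPA1 (0.65) and HLA-DQA1 (0.39) on the log2(FPKM + 1) scale, where 3 of these 4 genes had at most 3 fragments in any ANBL6BR library. CIITA, at 10 to 29 fragments a library there, was also near 0 FPKM, so for all 4 the difference restates the fall in ANBL6.

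The moderated F for unequal responses over the 5 models was 49.0 for HLA-DPA1, 32.2 for CD74, 25.6 for HLA-DQA1, 23.6 for HLA-DRA, 18.3 for HLA-DMA, 17.7 for CIITA, 16.2 for HLA-DQB1, 8.80 for HLA-DPB1 and 5.71 for HLA-DRB1. HLA-DQA1 and HLA-DQB1 were at most 3 fragments a library in ARP1 and RPMI8226. Their unequal responses set U266, and for HLA-DQA1 also ANBL6, beside models with nearly no fragments of them listed. In ANBL6BR every tested member but CD74 stayed at or below 0.234 FPKM. The F of these members thus also sets falls in other models beside 1 model with little room to fall.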

How the results depend on the processing

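Over all settings tried, 2016 values kept their direction and their side of the threshold, 45 were no longer called, 6 became called and 5 turned direction. Among the counts of called members, 1 moved by over 1.5 times: in ANBL6BR it was 0 to 1 when single libraries were left out. With single libraries left out, the counts were 4 to 5 in ANBL6, 7 in ARP1, 5 in RPMI8226, 8 to 9 in U266, 3 to 5 for the response difference, 8 to 9 for ANBL6BR against ANBL6 in DMSO and for the joint test, 69 to 73 over the pairs of models and 0 for the 5 models together. The 5 turned values were CD74 in ANBL6BR (-0.055 without ANBL6BR I3MO replicate 2; up to 0.45 without I3MO replicate 1), CIITA in ANBL6BR (-0.00487 without DMSO replicate 2; up to 0.0300 without replicate 1), HLA-DRB1 in RPMI8226 (0.0175 without DMSO replicate 1; down to -0.57 without replicate 2) and the HLA-DQB1 response difference (-0.0183 without ANBL6BR DMSO replicate 1 and -0.0209 without I3MO replicate 1; up to 0.0467 without I3MO replicate 2). None of the turned values was called, and the cause was not tested.

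On merged exon length, with HLA-DMB also tested, 8 members were called in ARP1, 6 in RPMI8226 and 10 in U266, all lower. Of all 16728 genes tested in that setting, 2308 were called lower in ARP1, 1596 in RPMI8226 and 2669 in U266.

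Same-numbered libraries did not deviate together (r from -0.113 to 0.0342 over 5 models), so the numbers pair nothing. With the replicate number as a block, the counts were 4 in ANBL6, 0 in ANBL6BR, 7 in ARP1, 5 in RPMI8226, 8 in U266, 3 for the response difference, 8 for ANBL6BR against ANBL6, 72 over the pairs and 8 for the joint test; the block was not run on the fit over group means. Of all 15687 genes with the block, 229 were called lower in ANBL6, 928 in ANBL6BR, 1821 in ARP1, 926 in RPMI8226 and 2062 in U266. For the response difference 194 were called higher, for ANBL6BR against ANBL6 3658 lower, and the joint test called 3942. Crossing the numbers in ARP1, chosen after seeing the data, left the members' counts as they were except for 71 over the pairs. Median-ratio scaling moved the share of higher calls in ARP1 to 42.2%, against 62.5% as deposited, and left the members' calls there at 7. The median r of CIITA with the other members was 0.763 with a pseudocount of 0.1 and 0.623 with 1, and that of HLA-DRA 0.857 and 0.743.

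The limits are few libraries, a dose that differs between models, and low levels: HLA-DQ in ARP1 and RPMI8226 and 6 members in ANBL6BR rest on at most 3 fragments a library.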

Other observations

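MHC class I genes, which share interferon control with class II, were counted for comparison. Of 11 tested, 7 were lower with I3MO in ARP1, 5 in U266, 1 in ANBL6, 1 in RPMI8226 and 0 in ANBL6BR by limma, and none was higher. Of all genes tested, 13.9% were called lower in ARP1, 15.8% in U266, 3.87% in ANBL6, 8.62% in RPMI8226 and 8.4% in ANBL6BR. The count in RPMI8226 is near that share. Called higher were 23.1% of genes in ARP1, 10.5% in U266, 4.1% in ANBL6, 6.19% in RPMI8226 and 10.0% in ANBL6BR. TAPBP, which encodes tapasin of the peptide-loading complex, was lower in ANBL6 (-0.91, limma adjusted p = 0.000902), ARP1 (-0.90, 0.000141), RPMI8226 (-0.93, 0.000245) and U266 (-0.57, 0.0036). TAP1, a subunit of the peptide transporter, was lower in ARP1 (-0.91) and U266 (-0.80), and HLA-B, a class I heavy chain, in ARP1 (-0.98).

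Of 13 genes of the interferon response tested, 5 rose and 1 fell in ANBL6, 0 and 3 in ANBL6BR, 1 and 2 in ARP1, 0 and 6 in RPMI8226, and 0 and 7 in U266. Of all genes tested, 4.1% rose and 3.87% fell in ANBL6, 10.0% and 8.4% in ANBL6BR, 23.1% and 13.9% in ARP1, 6.19% and 8.62% in RPMI8226 and 10.5% and 15.8% in U266. IFIT1 rose in ANBL6 (0.82, limma adjusted p = 0.00433) and fell in U266 (-1.80, 1.79e-06), and MX1 fell in U266 (-2.30, 1.06e-09) and RPMI8226 (-0.53, 0.000206). A separate list held 8 genes of the interferon gamma receptor and its signal, all tested. Of these, 0 rose and 3 fell in ANBL6, 0 and 3 in ANBL6BR, and 1 and 2 in ARP1. The counts were 0 and 2 in RPMI8226 and 0 and 4 in U266, beside the same shares of all genes. In this list SOCS3, a feedback inhibitor of cytokine signalling, fell in ANBL6BR (-2.92), U266 (-2.08) and ANBL6 (-1.84), and SOCS1 fell in ARP1 (-2.23).

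Of 10 cofactors of CIITA, 7 fell in ARP1, 5 in U266, 4 in RPMI8226, 3 in ANBL6 and 2 in ANBL6BR, while 2 rose in ARP1. Among all genes tested, 13.9% were called lower in ARP1, 15.8% in U266, 8.62% in RPMI8226, 3.87% in ANBL6 and 8.4% in ANBL6BR. The count rising in ARP1 is near the 23.1% of all genes called higher there. Those leading were CREBBP (-0.58) and EP300 (-0.68) in ANBL6 and the deacetylase genes HDAC1 and HDAC5 in the other 4 models. Of 4 co-stimulation genes tested, 1 fell in ANBL6, 1 in RPMI8226, 1 in U266 and 0 in ANBL6BR and ARP1, beside the same shares. None of them was called higher in any model. CD86, a co-stimulatory ligand, was the one that fell in U266 (-0.75, limma adjusted p = 9.92e-05) and RPMI8226 (-0.50, 0.00377).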
